A study of Ovis aries with 12 samples.

Results

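In whole blood of 12 rams, 38 genes had transcript levels that fell into separated groups of animals with an empty gap between them. They were 38 of 14374 genes tested and of 26478 gene identifiers in the deposited table. They were chosen from the measured values. For each gene, the 12 values of log2 counts per M (CPM, scaled by TMM, with a prior count of 2) were sorted, and the largest gap with at least 3 rams on each side was found. A gene was kept if its mean log2 CPM was above 0, if the gap was over 1 log2 unit (over 2-fold), and if the gap was wider than the spread of values on either side of it. In all, 41 genes met these conditions (0.285% of tested genes), and 3 of them are not described here. The gap, the levels and the division of the rams are therefore descriptions and were not tested.

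The animals were adult rams of the Rasa Aragonesa breed of sheep (Ovis aries). The labels class 6 of them (rams 1 to 6) as sexually active and 6 (rams 7 to 12) as not active. Each ram gave 1 blood library. The classes describe behaviour only, and no treatment, relationship or genotype is given. Any other difference between the animals is part of the spread or, where it goes with the class, cannot be told apart from it. The files give Ensembl identifiers only and do not pair them with gene names. Genes are therefore described by identifier, and no position, function, sequence or check of blood cell markers was possible.

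By way of background, blood taken into RNA-stabilising tubes holds the RNA of red cells, platelets and several kinds of leukocyte together, so a level reflects both how much of a transcript each cell makes and how many of those cells are present. In bulk blood, fewer cells of a type and less RNA per cell cannot be told apart. In outbred animals the output of a single gene is known to differ between individuals through inherited variants in or near it, through the number of gene copies, and through the cell mix and immune state on the day of sampling. Variants that act on their own gene copy add up over the 2 copies that an animal carries. Sequence differences between animals and the reference can also change how many reads are assigned to a gene. None of these was measured here.

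Totals ran from 42.7 to 72.8 M counts in 11 libraries, and active ram 1 had 13.7 M. That library stood apart in its TMM factor as well (0.640, against 1.00 to 1.08 in the others). Of the 38 genes, 27 had at least 10 counts in every library, and 7 had under 10 counts in active ram 1. With active ram 1 left out, 31 of the 38 genes still met the rule. The labels give no batch.

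The separation was wide in most of the 38 genes. Across the tested genes with a mean log2 CPM above 0, the median of the largest gap was 0.12 log2 units. In the 38 genes it ran from 1.01 to 4.22, with a median of 1.84 (3.58-fold). The rule required a gap over 1 log2 unit, so these genes exceed the median of the tested genes by construction. The mean of the higher level was 3.01 to 60.1 times the mean of the lower level, with a median of 7.28, and it was over 10 times higher in 12 genes and under 4 times higher in 9. In 22 genes the rams at the lower level had a median under 1 CPM, and in 10 of these it was under 0.5 CPM. The lower level was not always faint, since in ENSOARG00020007798 it was 19.5 CPM at the median. The smallest count at the higher level in any gene and ram was 14, and the median over genes of that smallest count was 105.

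**Figure D1:**
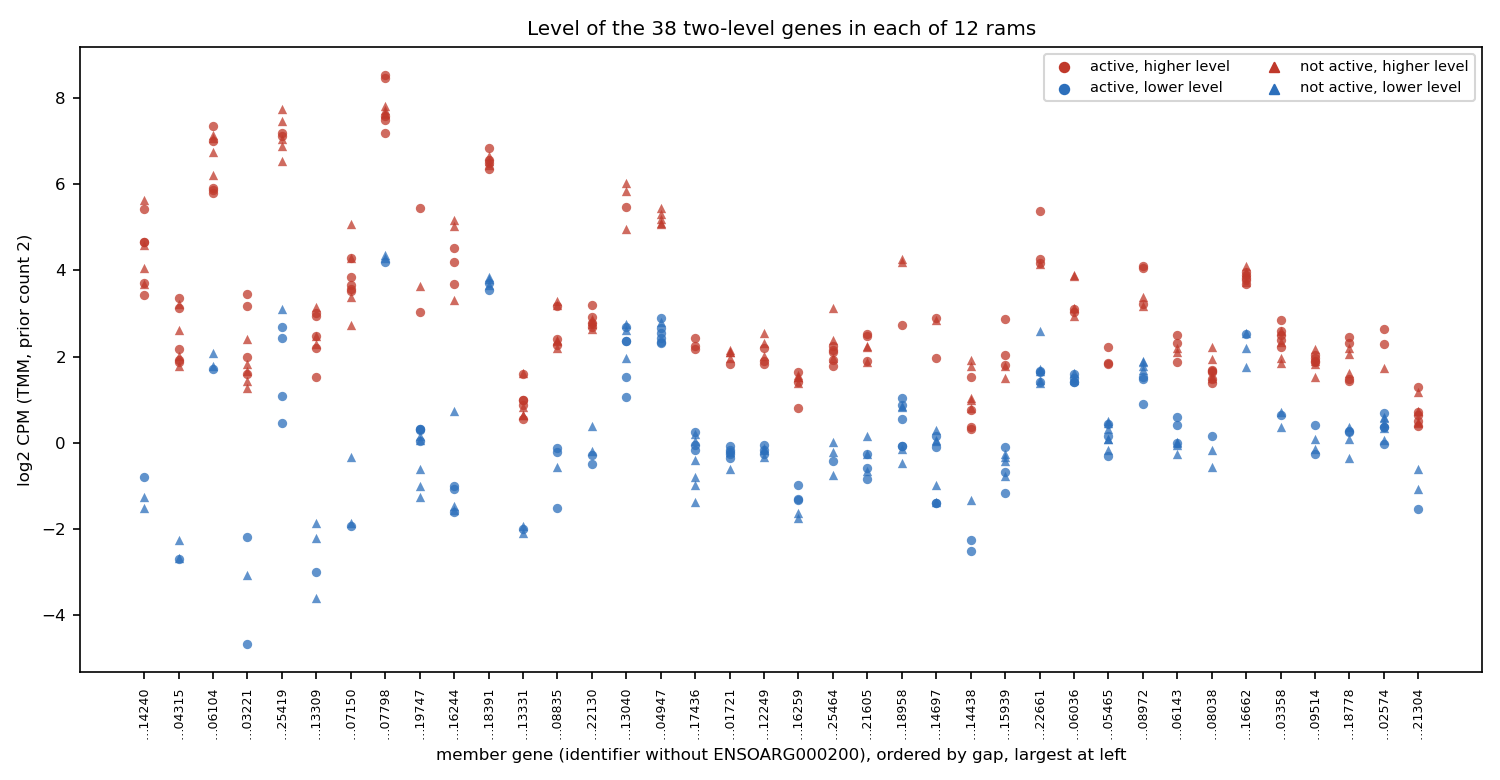
Log2 CPM (vertical axis, TMM-scaled, prior count of 2) of each of the 38 genes (horizontal axis, ordered by gap) in the 12 rams, with circles for active and triangles for not active rams, red for the higher and blue for the lower level. The empty space between red and blue narrows from 4.22 log2 units at the left to 1.01 at the right, and both symbols occur on both sides in 35 of the genes.

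The widest gaps were found in 6 genes, in which the lower level was close to absence in all but 2. ENSOARG00020014240 was at 0.535, 0.313 and 0.377 CPM in active ram 5 and not active rams 8 and 9. In the other 9 rams it was at 43.0, 25.2, 13.1, 25.2 and 10.7 CPM (active rams 1, 2, 3, 4 and 6) and at 49.9, 12.9, 16.5 and 24.1 CPM (not active rams 7, 10, 11 and 12). The gap was 4.22 log2 units, and both groups had rams at both levels.

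In ENSOARG00020004315, active ram 6 and not active rams 9 and 12 were at 0.114, 0.169 and 0.117 CPM, from 6 to 9 counts each. The other active rams were at 10.3, 3.75, 3.60, 8.69 and 4.45 CPM (rams 1 to 5), and the other not active rams at 9.32, 3.97, 3.37 and 6.09 CPM (rams 7, 8, 10 and 11). The 3 low rams were different animals from those low in ENSOARG00020014240, apart from not active ram 9.

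ENSOARG00020006104 was abundant where it was high. It was at 162, 129, 58.1, 60.1 and 55.7 CPM in active rams 1, 2, 3, 4 and 6 and at 74.2, 107, 135 and 140 CPM in not active rams 7, 8, 11 and 12. Active ram 5 and not active rams 9 and 10 were at 3.26, 4.20 and 3.41 CPM, from 172 to 223 counts, so that the transcript was plainly detected at the lower level too. The higher level spread 2.92-fold from its lowest to its highest ram.

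ENSOARG00020003221 had 0 counts in active ram 1, which at the depth of that library allows up to 0.343 CPM (3 counts, counting error only). Active ram 2 and not active ram 10 were at 0.180 and 0.0794 CPM. The 9 remaining rams lay from 2.39 to 10.9 CPM, with the highest values in active rams 5 and 6. The low value of active ram 1 comes from the shallowest library, although its floor is still below the lowest ram of the higher level.

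ENSOARG00020025419 divided the rams 7 to 5. Active rams 1 and 5 were at 138 and 145 CPM and not active rams 7 to 11 at 119, 92.2, 131, 177 and 214 CPM. Active rams 2, 3, 4 and 6 were at 1.35, 2.10, 5.39 and 6.37 CPM, and not active ram 12 was at 8.49 CPM. The means of the 2 levels were 145 ± 39.7 CPM (SD, n = 7) and 4.74 ± 2.99 CPM (SD, n = 5).

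ENSOARG00020013309 was nearly absent in active ram 4 and not active rams 7, 10 and 11, at 0.0852, 0.0434, 0.179 and 0.235 CPM. These values rest on 2 to 13 counts. The other 8 rams lay from 2.85 to 8.77 CPM, with 5 active and 3 not active rams among them.

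Among the 38, the gene of highest mean level was ENSOARG00020007798. Active ram 6 and not active rams 8 and 9 were at 18.1, 19.5 and 20.4 CPM. Active rams 1, 2 and 5 were at 146, 179 and 191 CPM, and not active rams 7, 10, 11 and 12 at 224, 212, 202 and 196 CPM. Active rams 3 and 4 were higher still, at 354 and 368 CPM. The smallest of these values rests on 954 counts, so counting error is small beside the differences.

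ENSOARG00020018391, also among the 3 most abundant, had 2 narrow levels and nothing else. Active rams 1 and 5 and not active rams 7, 9 and 10 were at 13.03, 11.6, 13.9, 12.7 and 14.3 CPM. Active rams 2, 3, 4 and 6 were at 81.1, 94.0, 115 and 90.6 CPM, and not active rams 8, 11 and 12 at 87.6, 93.0 and 100.2 CPM. The levels were 13.1 ± 1.07 CPM (SD, n = 5) and 94.4 ± 10.7 CPM (SD, n = 7). ENSOARG00020018391 was 1 of 2 genes, with ENSOARG00020004947, that met the rule under every one of 23 alternative settings. These settings include stricter rules on the mean level and on the rams per side. Faint genes and genes with 3 rams at a level fail those by construction.

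The genes that neither the size of the gap, the mean level nor the group comparison singled out had gaps of at least 1.12 log2 units, and some of them are given here as examples chosen after their values were seen. In ENSOARG00020016244 the division was 6 to 6, with active rams 1, 3 and 6 and not active rams 8, 9 and 12 at 0.289 to 1.62 CPM and the other 6 rams at 9.88 to 36.1 CPM. ENSOARG00020012249 was also divided 6 to 6, between 0.762 to 0.924 CPM and 3.52 to 5.78 CPM, with 3 rams of each group at each level. Both were low in active rams 1, 3 and 6 and not active rams 8 and 12, and they parted in not active rams 9 and 11.

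In ENSOARG00020022130, active rams 3 and 6 and not active rams 8 and 11 were at 0.674 to 1.27 CPM and the other 8 rams at 6.18 to 9.16 CPM, again with 4 rams of each group at the higher level. ENSOARG00020013040 was high in a minority, with 44.5 CPM in active ram 4 and 65.0, 31.3 and 57.2 CPM in not active rams 7, 8 and 9, against 2.05 to 6.76 CPM in the other 8 rams. ENSOARG00020018958 was at 6.64 CPM in active ram 2 and at 18.4 and 19.05 CPM in not active rams 7 and 10, against 0.678 to 2.02 CPM elsewhere.

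Active ram 1, whose library stood apart, was the highest ram in 7 of the 38 genes, against 1 to 8 genes in each of the other rams (8 in not active ram 7). The 7 were ENSOARG00020004315, ENSOARG00020006104, ENSOARG00020017436, ENSOARG00020015939, ENSOARG00020006143 and the pair that follows. ENSOARG00020019747 was at 43.4 CPM there, at 8.10 CPM in active ram 2 and at 12.4 CPM in not active ram 9, while the other 9 rams had 0.377 to 1.21 CPM. ENSOARG00020022661 was at 41.8 CPM in active ram 1 and at 18.1, 19.3 and 17.8 CPM in active rams 2 and 4 and not active ram 9, while the other 8 had 2.57 to 5.95 CPM. The part of the makeup of that library in its values in the 7 genes was not tested. ENSOARG00020022661 met the rule without active ram 1, while ENSOARG00020019747, with 3 rams at its higher level, could not.

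In 8 genes the higher level was itself divided, by a further gap wider than the spread on either side of it and with at least 2 rams on each side. This was looked for, after the values had been seen, in the 32 genes with at least 4 rams at the higher level. By this measure, which set no minimum size, the rams of these 8 genes fell into 3 sets or more, called levels here for short. ENSOARG00020006036, which also had a small further gap inside its lower level, had 4 levels by the same measure, and its lower level is taken as 1 here. The measure is easily met with few rams, so such a gap need not mark a separate level. It was met about as often inside the lower level, in 7 of 27 genes. How often other genes meet it was not tested. The mean of the upper rams was 1.42 to 1.87 times that of the middle rams. In CPM, the step from the middle to the upper level was about as large as the step from the lower to the middle level in 7 of the 8, with step ratios from 0.867 to 1.19. The condition that the main gap exceed the spread within a level bounds the further gap on the log2 scale, so these ratios are a description of chosen genes and were not tested.

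ENSOARG00020007798 stood at 19.3 ± 1.12 CPM (SD, n = 3), 193 ± 25.1 CPM (SD, n = 7) and 361 ± 9.81 CPM (SD, n = 2). The steps were 174 and 168 CPM, a step ratio of 0.969 (approximate SE 0.115, propagated from the spread within levels). This SE, like those of the later step ratios, takes the levels as fixed, although they were cut from the same values. It leaves out the choice of cut and of genes and is therefore likely too small. In ENSOARG00020008835, active rams 4, 5 and 6 and not active ram 8 were at 0.886, 0.310, 0.818 and 0.638 CPM. A middle set of 5 rams, active rams 1 and 2 and not active rams 7, 10 and 12, lay from 4.56 to 5.28 CPM. Active ram 3 and not active rams 9 and 11 were at 8.92, 9.70 and 9.18 CPM. The steps of 4.33 and 4.27 CPM gave a ratio of 0.986 (SE 0.0865).

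ENSOARG00020006036 was at 2.60 to 3.01 CPM in 6 rams, at 7.65 to 8.65 CPM in active rams 1 and 3 and not active rams 7 and 11, and at 14.9 and 14.6 CPM in not active rams 8 and 10. Its step ratio was 1.19 (SE 0.0967). ENSOARG00020008972 was at 1.83 to 3.69 CPM in 7 rams, at 9.04 to 10.4 CPM in active ram 2 and not active rams 8 and 9, and at 17.1 and 16.5 CPM in active rams 3 and 6, with a step ratio of 1.11 (SE 0.147). The rams at the top level differed between the 2 genes.

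ENSOARG00020013331 was at 0.210 ± 0.0131 CPM (SD, n = 3), 1.70 ± 0.211 CPM (SD, n = 7) and 3.00 ± 0.0228 CPM (SD, n = 2), with a step ratio of 0.867 (SE 0.10). ENSOARG00020018778 had means of 1.07, 2.81 and 4.75 CPM over 5, 3 and 4 rams and a step ratio of 1.11 (SE 0.214). ENSOARG00020021304 had means of 0.452, 1.45 and 2.33 CPM over 3, 7 and 2 rams and a step ratio of 0.883 (SE 0.153). Its main gap was only 1.01 log2 units, and it failed the rule in 14 of 23 alternative settings, some of them by construction. The exception to steps of about equal size was ENSOARG00020021605, with means of 0.736, 3.64 and 5.16 CPM over 6, 2 and 4 rams and a step ratio of 0.527 (SE 0.103). The level assignments of active ram 1 in these fainter genes rest on as few as 14 counts. With that ram left out and the other rams kept at their levels, the median step ratio of the 8 genes was 0.948, against 0.978 with it.

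**Figure D2:**
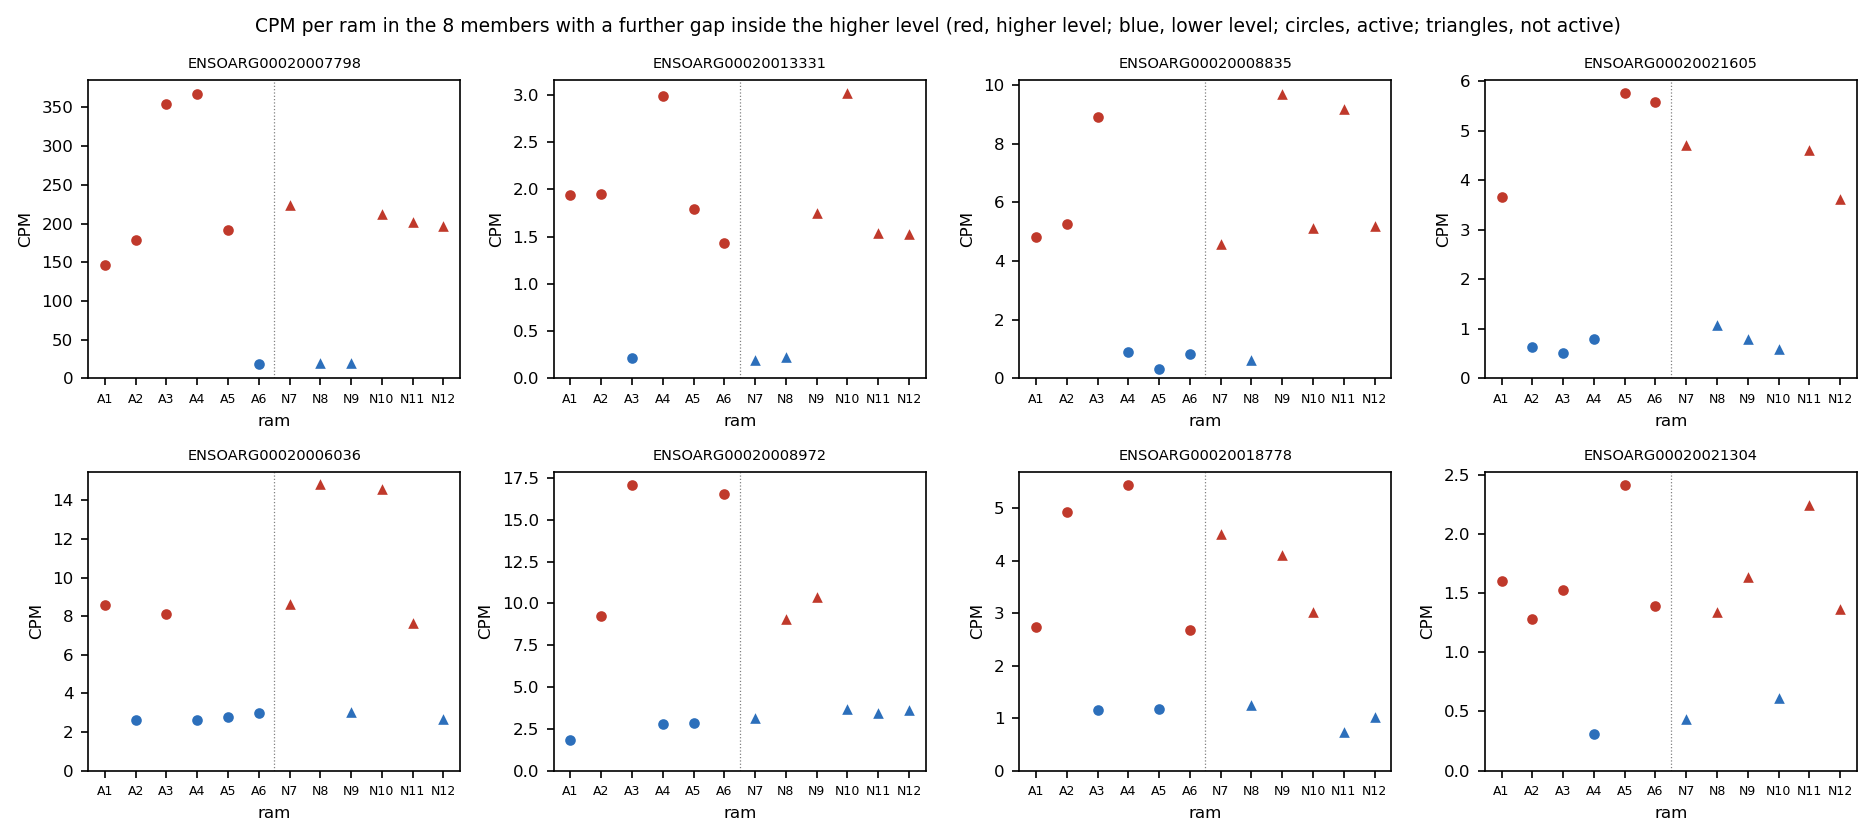
CPM (vertical axes, linear, from 0) in each ram (horizontal axes, A for active and N for not active) for the 8 genes with a further gap inside the higher level, with red for the higher and blue for the lower level of the rule, circles for active and triangles for not active rams. In ENSOARG00020007798 the rams stand near 19.3, 193 and 361 CPM, and active and not active rams occur at more than 1 level in each gene.

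A further gap inside the lower level was found in 7 of the 27 genes with at least 4 rams there. One of these, ENSOARG00020006036, had one in both levels, so 14 of the 38 genes had a further gap by this measure and 24 did not. The measure set no minimum size and needed only 2 rams on each side, so such a gap need not mark a separate level. The gap inside the lower level of ENSOARG00020006036 was 0.113 log2 units. That of ENSOARG00020013309 rested on 2 to 13 counts. The steps were unequal in these 7 genes, as the step up to the higher level was 6.92 to 40.4 times the step inside the lower level (median 21.9), and a main gap wider than the spread of the lower level makes it the larger. In ENSOARG00020014697, the lower level held 4 rams at 0.375 ± 0.0622 CPM (SD, n = 4) and 5 at 1.03 ± 0.106 CPM (SD, n = 5), below 3 rams at 6.15 ± 1.95 CPM (SD, n = 3). The lowest 4 rams rested on 3 counts in active ram 1 and 16 to 24 in active ram 6 and not active rams 7 and 12. The main gap of this gene, 1.684 log2 units, barely exceeded the spread of its lower level, 1.681. It failed the rule in 14 of 23 alternative settings, some of them by construction. In ENSOARG00020025419, active rams 2 and 3 (1.35 and 2.10 CPM) stood below the other 3 low rams (5.39 to 8.49 CPM).

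Each gene mostly had its own division of the rams. Among the 38 genes there were 36 distinct divisions, 34 of them held by 1 gene, and no division was shared by more than 2 genes. Many divisions of 12 rams are possible, so unrelated genes would also mostly differ, and the number of shared divisions was not tested. Over the 703 pairs of genes the median size of Pearson's r across the 12 rams was 0.219, as a description. The numbers of rams at the higher level ran from 3 (6 genes) to 9 (11 genes). Each ram was at the higher level in 17 to 25 of the 38 genes, and active ram 1, the shallowest library, had the most, at 25. No ram was thus at the higher, or the lower, level throughout.

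The pairs that did share a division were few. Since each gap was wider than the spread within levels, a shared or nearly shared division makes r high by construction. ENSOARG00020007150 and ENSOARG00020003358 were both low in active ram 2 and not active rams 11 and 12 (r = 0.906, Spearman's rho 0.650, n = 12 rams). In those 3 rams ENSOARG00020007150 was at 0.224, 0.235 and 0.762 CPM, against 6.65 to 33.7 CPM in the other 9. ENSOARG00020003358 was at 1.53, 1.25 and 1.60 CPM in the same rams and at 3.58 to 7.18 CPM in the other 9. Within the higher level the rams spread 5.07-fold in ENSOARG00020007150 and 2.00-fold in ENSOARG00020003358. The highest ram there was not active ram 7 for the first and active ram 4 for the second.

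The other pair was ENSOARG00020017436 and ENSOARG00020005465, both high in active rams 1, 3 and 4 (r = 0.900, rho 0.685, n = 12 rams). A further 4 pairs agreed in 11 of 12 rams, all in the same direction. ENSOARG00020018391 and ENSOARG00020016662 differed in active ram 5 alone, which was at 11.6 CPM, the lower level, in the first and at 14.0 CPM, the higher level, in the second (r = 0.799). ENSOARG00020016662 had a narrower separation, with 3.33 to 5.79 CPM in 4 rams and 12.9 to 17.2 CPM in 8. ENSOARG00020013309 and ENSOARG00020021304 differed in not active ram 11 (r = 0.754), ENSOARG00020013331 and ENSOARG00020025464 in not active ram 12 (r = 0.784), and ENSOARG00020019747 and ENSOARG00020022661 in active ram 4 (r = 0.812). Spearman's rho in these 4 pairs was 0.580, 0.734, 0.378 and 0.336, in the order given. These genes were named because they pair, after their values had been seen, and all points of a correlation come from the same 12 libraries. The values of r restate the shared divisions and were not tested.

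**Figure D3:**
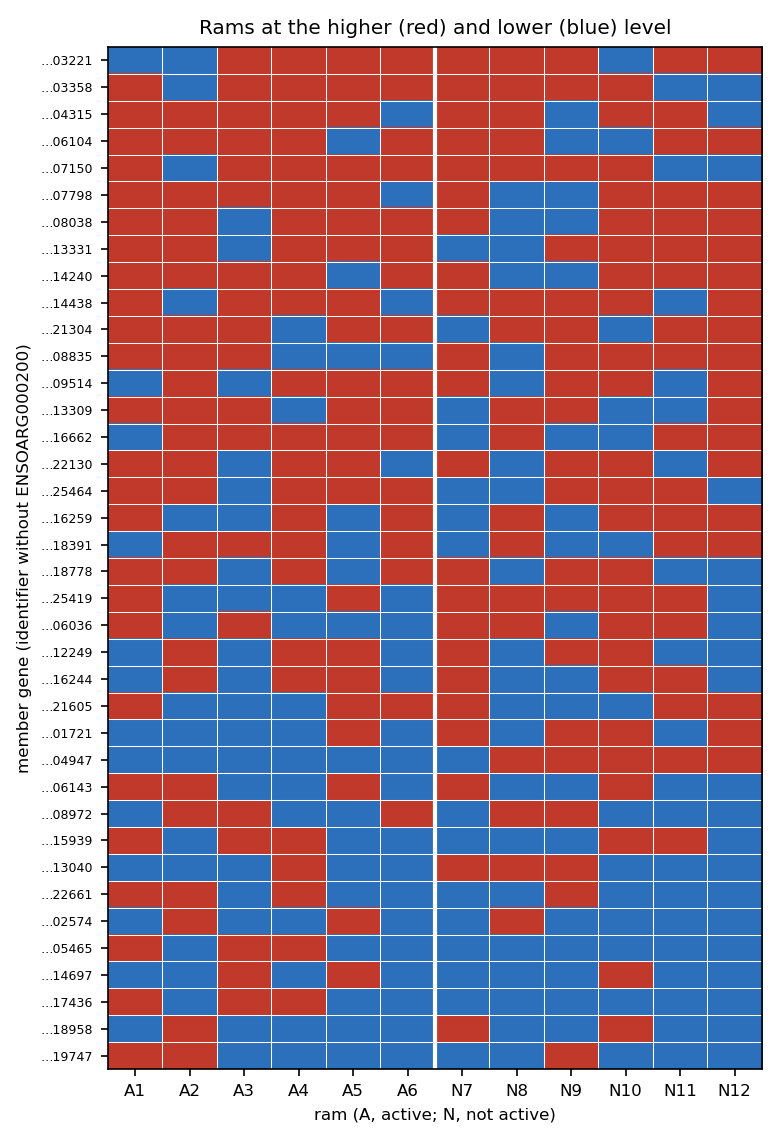
Level of each of the 38 genes (rows, ordered by the number of rams at the higher level) in each ram (columns, A for active and N for not active, separated by the white line), with red for the higher and blue for the lower level. Rows differ from each other in nearly all cases, with 36 distinct divisions, and each ram has 17 to 25 red cells.

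The group labels were not used to choose the genes, apart from the filter on low counts, so the comparison of active with not active rams can be tested. By edgeR's quasi-likelihood test with Benjamini-Hochberg adjustment over all 14374 genes, 0 of the 38 genes passed the threshold of 0.05, against 0% of all tested genes. At an unadjusted p under 0.05 there were 3 of the 38 (7.89%), against 5.6% of all tested genes. Of these 3, active rams had the higher level in 2 (all tested genes, 4.08%) and the lower level in 1 (all tested genes, 1.52%). The groups did not overlap in 0 of the 38 genes, against 0.139% of all tested genes. With 3 genes, the share lay near that of all tested genes.

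In most of the genes the 2 levels were spread over both groups. The number of active rams at the higher level differed from that of not active rams by 1 at most in 26 of the 38 genes, and by 3 or more in 5. Divisions unrelated to the groups would also tend to fall near an even split, so these counts are a description and were not tested. Active rams had 21.7 ± 3.08 genes at the higher level (SD, n = 6) and not active rams 20 ± 2.61 (SD, n = 6). The median size of the log2 fold change was 0.51, against 0.11 over all tested genes, and the median standard error was 0.71 against 0.15. The genes were chosen for rams that lie far apart, so neither value is a result about them.

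ENSOARG00020004947 had the smallest p. It was at 4.92, 5.39, 5.80, 7.36, 6.29 and 5.04 CPM in active rams 1 to 6, and at 6.91, 44.0, 34.4, 33.9, 36.8 and 39.4 CPM in not active rams 7 to 12. No active ram was at the higher level, and not active ram 7 was at the lower one. The log2 fold change, active minus not active, was -2.48 (SE 0.34). The gene did not pass, as edgeR gave it an adjusted p of 0.111. Without not active ram 7 the adjusted p by the same test was 1.39e-06, and DESeq2's Wald test on all rams gave 3.08e-10. Over 20 alternatives the adjusted p ran up to 0.958, and leaving out the 1 ram that overlaps adds no support, since it removes the overlap itself.

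The genes whose pattern over the 12 rams was most like that of ENSOARG00020004947, among all tested genes, were ENSOARG00020023175 (Pearson's r = 0.840), ENSOARG00020001082 (r = 0.814) and ENSOARG00020016768 (r = 0.814). None of these had 2 levels. ENSOARG00020023175 ran from 5.26 to 7.497 CPM in active and from 6.60 to 9.16 CPM in not active rams, a much smaller difference in overlapping groups. No tested gene thus followed the 2 levels of ENSOARG00020004947 with an r larger in size than 0.840.

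ENSOARG00020001721 was the gene with the next smallest p among those lower in active rams. Active ram 5 was at 3.50 CPM and the other active rams at 0.741 to 0.915 CPM, while not active rams 7, 9, 10 and 12 were at 4.39, 3.88, 4.25 and 4.28 CPM and not active rams 8 and 11 at 0.821 and 0.615 CPM. Both levels were narrow, at 0.794 ± 0.0947 CPM (SD, n = 7) and 4.06 ± 0.366 CPM (SD, n = 5). The log2 fold change was -1.24 (SE 0.58, adjusted p = 0.845 by the same edgeR test).

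In the opposite direction, ENSOARG00020017436 was at 5.37, 4.51 and 4.69 CPM in active rams 1, 3 and 4 and at 0.853, 0.931 and 1.14 CPM in active rams 2, 5 and 6. All 6 not active rams were at the lower level, from 0.348 to 1.11 CPM, which overlaps the low active rams. The log2 fold change was 2.04 (SE 0.54, adjusted p = 0.845, edgeR). ENSOARG00020005465 had the same division, with 3.54, 3.49 and 4.65 CPM in active rams 1, 3 and 4, 0.776 to 1.31 CPM in the other active rams and 0.850 to 1.37 CPM in the not active rams. Its log2 fold change was 1.11 (SE 0.42, adjusted p = 0.845, edgeR). These are 2 genes with 1 division of the rams and are not independent of each other as a comparison of the groups.

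**Figure D4:**
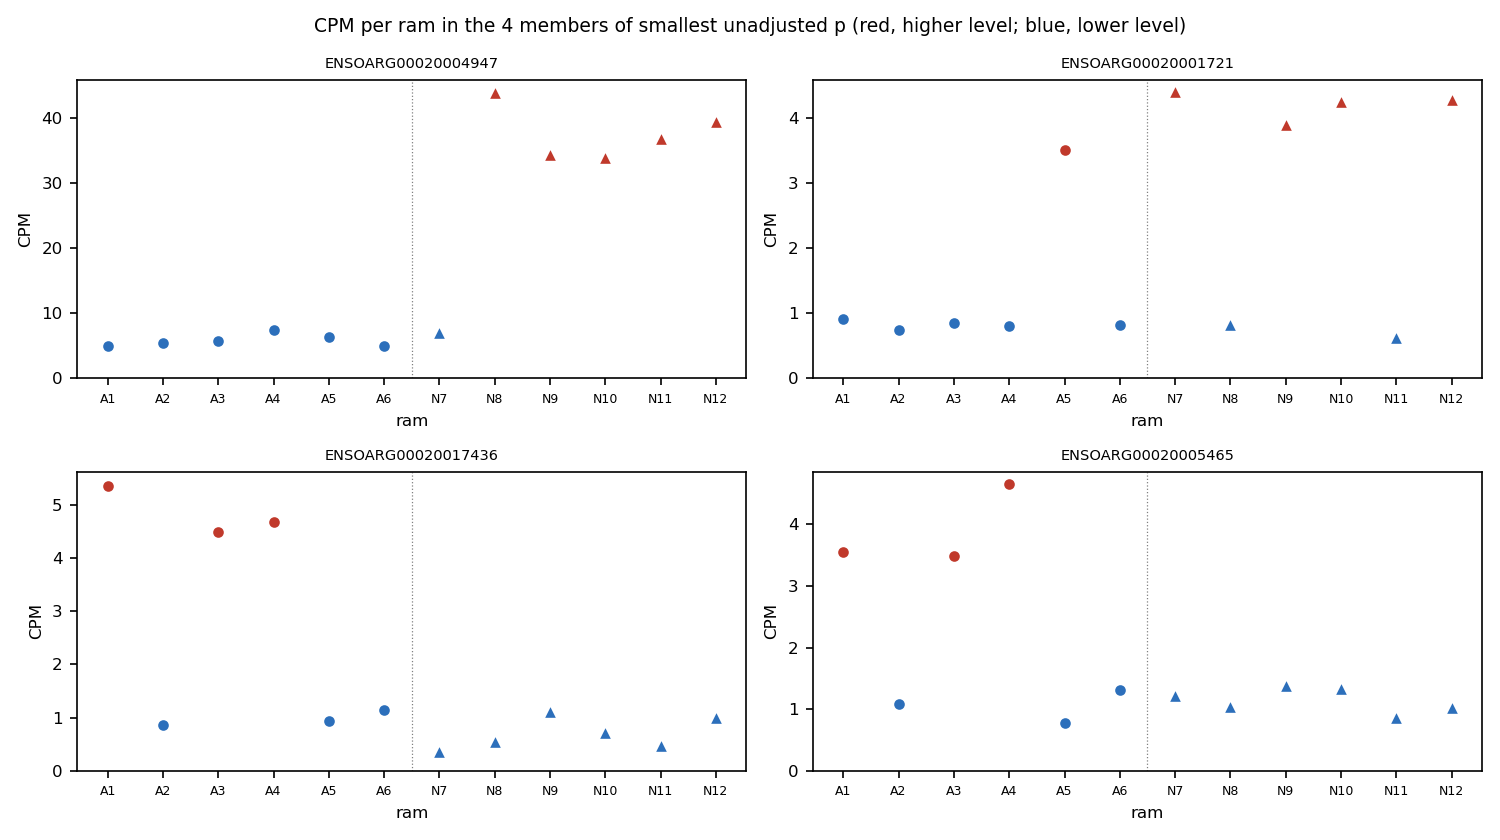
CPM (vertical axes, linear, from 0) in each ram (horizontal axes, A for active and N for not active) for the 4 genes of smallest unadjusted p in the group comparison, 2 in each direction, with red for the higher and blue for the lower level, circles for active and triangles for not active rams. In ENSOARG00020004947 not active ram 7, at 6.91 CPM, lies with the 6 active rams, and in ENSOARG00020017436 only active rams 1, 3 and 4 are at the higher level.

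The genes of widest gap showed no group difference past the threshold. Their log2 fold changes were 0.16 (SE 1.07) in ENSOARG00020014240, 0.40 (SE 0.97) in ENSOARG00020004315, 0.0059 (SE 0.93) in ENSOARG00020006104, 0.68 (SE 0.96) in ENSOARG00020003221, -1.33 (SE 1.14) in ENSOARG00020025419 and 0.53 (SE 1.10) in ENSOARG00020013309. The adjusted p by edgeR's test lay from 0.867 to 0.9995. With standard errors near 1 log2 unit, a 2-fold difference between the groups was not detectable in these genes. ENSOARG00020007798 (0.53, SE 0.73) and ENSOARG00020018391 (0.34, SE 0.72) did not pass either. The sizes of all 8 fold changes moved by over 1.5 times with the setting, and none passed under any alternative run. Over these alternatives ENSOARG00020025419 ran from -3.35 (limma-voom; -2.08 without active ram 5) to -1.06, ENSOARG00020013309 from 0.27 (without not active ram 7) to 1.21 (limma-voom; 1.12 without not active ram 9) and ENSOARG00020003221 from 0.21 (without active ram 6) to 0.95. ENSOARG00020004315 ran from 0.086 (without active ram 1) to 0.88 (without not active ram 7), ENSOARG00020007798 from 0.28 (without active ram 4) to 0.77 and ENSOARG00020018391 from 0.12 (without active ram 4) to 0.60. ENSOARG00020014240 ran from -0.23 (without active ram 1) to 0.95 (limma-voom) and ENSOARG00020006104 from -0.34 (without active ram 1) to 0.27 (without not active ram 12), so both changed sign.

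**Figure D5:**
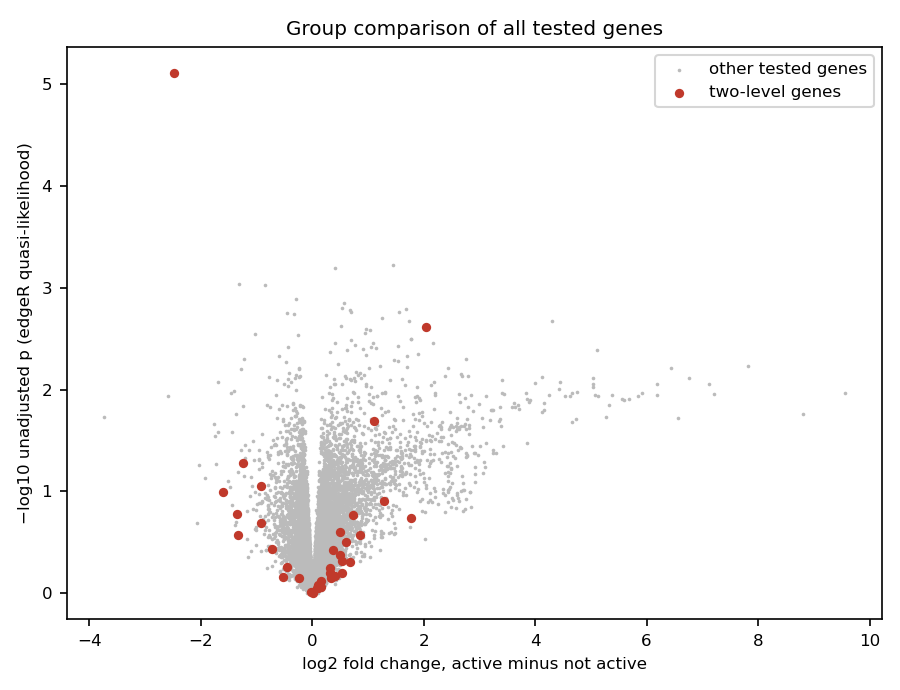
Unadjusted p on a negative log10 scale (vertical axis, edgeR's quasi-likelihood test) against the log2 fold change, active minus not active (horizontal axis), for all 14374 tested genes, with the 38 two-level genes in red and the others in grey. One red point, ENSOARG00020004947 at -2.48, lies at the top, and the other 37 lie among the grey points in height.

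The members nearest the gap threshold differed little from the genes just outside it. Just inside were ENSOARG00020021304 with a gap of 1.01 log2 units, ENSOARG00020002574 with 1.04 and ENSOARG00020018778 with 1.08. Just outside were ENSOARG00020003688 with 0.98, ENSOARG00020015500 with 0.94 and ENSOARG00020017241 with 0.93, which met every other condition. In ENSOARG00020017241 the highest ram of the lower level was at 205 CPM and the lowest of the higher level at 391 CPM. In ENSOARG00020002574 active rams 2 and 5 and not active ram 8 were at 6.22, 4.90 and 3.27 CPM, and the other 9 rams at 0.944 to 1.57 CPM. In all, 113 genes failed only the condition of a gap over 1 log2 unit, and 93 failed only the condition on the spread within levels.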

How the data were processed

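The values are raw read counts as the authors deposited them, in 1 table with a row for each gene identifier. The tools named in the submitters' processing notes are STAR 2.7.8a, FastQC, HTSeq and edgeR. Genome build, annotation, strand setting and any use of molecular identifiers are not stated in these sources. Unremoved PCR copies or reads shared between similar genes could therefore affect levels. Columns were matched to rams by the code in the sample titles (0 left unmatched).

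From these counts, genes were filtered with filterByExpr (minimum count of 10, minimum total of 15) and scaled by TMM, and active rams were compared with not active rams by the robust quasi-likelihood test of edgeR 4.0.16 (R 4.3.3), with no covariate. Adjustment of p-values was over all tested genes. DESeq2 1.42.0 and limma 3.58.1 served as alternatives. A standard error is the size of a log2 fold change divided by the square root of F. How often the gene rule and the test err at the levels and gaps of the genes described here was not tested. Rams are separate animals, but each has 1 library. Named genes were those of smallest p in each direction (2 each), of widest gap (6), of highest mean level (3), just inside the threshold (3), just outside it (3) and most like the gene of smallest p (3); others were named after their values were seen. The genes and lists were chosen with earlier results of these data known. Planned marker and pathway lists need gene names and were not used here.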

Additional observations from a re-analysis of the deposited data

Results flagged for a closer look

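Values far from the rest of their group of 6 rams were looked for in 38 sets, of which 7 had one, where chance gives about 1 set in 20. The sets are not independent, and the genes were chosen for separated levels, which makes a lone ram more likely. Among library measures, active ram 1 stood apart in its total (13.7 M counts, the other active rams having 42.7 to 57.8 M), its TMM factor (0.640 against 1.00 to 1.07) and its genes detected (15638 against 17489 to 17905). Not active ram 8 stood apart by its total of 72.8 M counts, the others of its group having 43.8 to 52.8 M. Among genes, not active ram 7 had 6.91 CPM of ENSOARG00020004947, where the rest of its group had 33.9 to 44.0 CPM. Active ram 5 had 3.50 CPM of ENSOARG00020001721, where the rest of its group had 0.741 to 0.915 CPM. Not active ram 8 had 3.27 CPM of ENSOARG00020002574, where the rest of its group had 0.999 to 1.48 CPM.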

How the results depend on the processing

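The number of the 38 genes past the threshold in the group comparison, 0 with the main settings, was 1 with DESeq2's Wald test, and 0 to 1 with single rams left out, the 1 being ENSOARG00020004947 in each case (log2 fold change -2.48 with DESeq2 and -2.69 without not active ram 7). It stayed 0 in the other 19 of 21 alternatives. Genes meeting the rule numbered 21 with at least 4 rams on each side, 17 with a gap over 1.5 times the spread within levels and 12 with a mean log2 CPM above 2, by construction of these stricter settings, which leave 21, 17 and 12 of the 38. With library totals as the only scaling, 32 genes met it, 23 of the 38 among them, and the median gap of the 38 was 1.64 log2 units, against 1.84; RLE gave 37 of the 38 and upper-quartile scaling 35. With 1 ram left out, 31 to 35 of the 38 met the rule, and 21 met it whichever ram was left out; a gene with 3 rams at a level cannot meet it once 1 of them is gone. Fold changes of 3 named genes that lay near 0 changed sign, each time with an adjusted p over 0.9: ENSOARG00020006104 was at -0.017 with upper-quartile scaling, -0.22 with library totals and -0.34 to 0.27 with 1 ram left out, ENSOARG00020014240 at -0.061 with library totals and -0.23 to 0.84 with 1 ram left out, and ENSOARG00020021304 at -0.085 to 0.39 with 1 ram left out. The median step ratio, whose alternatives were chosen after seeing the data, lay from 0.948 to 1.09 over 3 other scalings and without active ram 1. The genes and the levels of their rams were kept as in the main settings, which limits how far the ratio could move. No paired analysis was possible because the groups share no replicate numbers. In active ram 1, 13.7 M counts limit the precision of the fainter genes.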
